A study of Mus musculus with 5 samples.

Results

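The genes described here are 10 genes by which hepatocytes handle nitrogen: *Cps1*, *Otc*, *Ass1*, *Asl* and *Arg1*, the enzymes of the urea cycle; *Nags*, *Slc25a15* and *Oat*, which feed or regulate it; and *Gls2* and *Glul*, which break down and make glutamine. They were chosen by name, and all 10 were found among the 32285 genes of the count matrices. Their RNA was summed over hepatocyte nuclei, defined as barcodes with at least 2000 unique molecular identifiers (UMIs, each marking 1 captured RNA molecule) and at least 1 UMI of *Hnf4a*, a transcription factor of hepatocytes. This kept 23267 of 57080 barcodes.

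The nuclei came from livers of male wild-type C57BL6/J mice that were given their diet from an age of 10 to 12 weeks for 5 months. Controls ate regular chow. The others ate the AMYLIN liver NASH diet, with 20 kcal% of fructose, 40 kcal% of fat and, in addition, 2% cholesterol, which leads to metabolic dysfunction–associated steatohepatitis (MASH), a fatty and inflamed liver with fibrosis. There were 3 chow libraries and 2 MASH libraries. The labels do not say whether a library came from 1 mouse or several, so the p-values below measure only the spread between these libraries.

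The liver turns ammonia from amino acids into urea in hepatocytes near the portal vein, where blood enters the lobule. Ammonia that escapes is caught by a thin layer of hepatocytes around the central vein, which join it to glutamate to make glutamine. Carbamoyl phosphate synthetase (Cps1) and ornithine transcarbamylase (Otc) work inside mitochondria, with N-acetylglutamate synthase (Nags) making the activator that Cps1 needs and the ornithine carrier Slc25a15 bringing in ornithine. Argininosuccinate synthase (Ass1), argininosuccinate lyase (Asl) and arginase (Arg1) complete the cycle in the cytosol. Liver glutaminase (Gls2) releases ammonia from glutamine on the portal side, glutamine synthetase (Glul) makes glutamine on the central side, and ornithine aminotransferase (Oat) turns ornithine towards glutamate.

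In the GENCODE M21 annotation (GRCm38) all 10 are protein-coding genes. *Cps1* (ENSMUSG00000025991) lies at chr1:67123026-67231259 on the plus strand, *Otc* at chrX:10252305-10321024 (plus), *Ass1* at chr2:31470207-31520672 (plus), *Asl* at chr5:130011258-130029247 (minus) and *Arg1* at chr10:24915221-24927484 (minus). *Nags* lies at chr11:102145513-102149477 (plus), *Slc25a15* at chr8:22375551-22398597 (minus), *Oat* at chr7:132557478-132576398 (minus), *Gls2* at chr10:128194457-128210004 (plus) and *Glul* (ENSMUSG00000026473) at chr1:153899944-153909723 (plus). Exons of *Nags*, *Gls2* and *Glul* share bases with exons of *Gm11586*, *Spryd4* and *Teddm2* on the other strand, and *Glul* also holds the microRNA gene *Mir8114*.

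The 150 bases before the start of transcription are shown for *Oat* and *Nags*, which were both lower in MASH, and for *Otc*, which passed in none of the main tests of diet or zone (RefSeq, GRCm38.p6, 5′ to 3′ on the gene's strand). Capitals mark CCAAT on either strand.
Oat, chr7:132576399-132576548 (minus): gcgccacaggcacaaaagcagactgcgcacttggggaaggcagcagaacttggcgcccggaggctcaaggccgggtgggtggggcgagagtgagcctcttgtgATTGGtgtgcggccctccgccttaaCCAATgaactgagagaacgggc
Nags, chr11:102145363-102145512 (plus): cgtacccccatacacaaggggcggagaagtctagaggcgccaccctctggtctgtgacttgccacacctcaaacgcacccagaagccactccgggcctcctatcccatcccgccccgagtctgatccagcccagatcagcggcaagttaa
Otc, chrX:10252155-10252304 (plus): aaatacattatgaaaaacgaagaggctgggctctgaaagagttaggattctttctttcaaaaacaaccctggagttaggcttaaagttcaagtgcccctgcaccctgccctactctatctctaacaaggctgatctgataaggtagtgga
The *Oat* window holds CCAAT 2 times, 47 and 22 bases before the start, and CCAAT stands in 24.5% of the 32851 promoter windows of the same length. None of the 3 windows holds the motif TATAAA, found on either strand in 7.57% of all windows, the motif TCAAAG, found in 7.93%, or the motif TTGCNNAA, found in 5.46%. A match, or none, is a description of letters only.

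Hepatocyte nuclei numbered 2611 to 7006 per library, with 15125194 to 39316007 UMIs in total and a median of 3871.5 to 5475 UMIs per nucleus. They were 48.9% to 63.5% of the barcodes of a chow library, and 20.7% and 22.6% of those of MASH replicates 1 and 2. All 8 hepatocyte markers, among them *Alb*, *Ttr*, *Apob* and *Fgb*, had UMIs in every library. Their summed level was 11414 to 20244 CPM (counts per 1000000 UMIs) in chow and 5789 to 6712 in MASH. Chow replicate 3 stood apart: 7 stress and acute-phase genes summed to 22674 CPM there, against 1521 and 2135 in the other chow libraries and 317 and 359 in MASH. Nuclei with 3 or more markers of another cell class were 4.21% to 10.6% of the chow and 13.3% to 18.1% of the MASH hepatocyte nuclei. Over all hepatocyte nuclei, the summed markers of stellate cells were at 76.05 to 109.2 CPM in chow and 204 to 232 in MASH, of macrophages at 31.1 to 44.7 and 103 to 196, of cholangiocytes at 27.7 to 68.4 and 99.3 to 165.5, and of endothelial cells at 83.9 to 271 and 179 to 211. T and B markers stayed under 14 CPM. *Cftr* and *Krt19* were the defining cholangiocyte markers at 0 in some chow libraries, *Pax5*, *Ms4a1*, *Cd79b* and *Fcmr* were among the B markers at 0 there, and *Marco* was at 0 in 1 MASH library. Any 2 libraries shared 23 to 48 barcodes, at most 0.399% of the smaller one.

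The first comparison asked how the whole hepatocyte pool differed between the diets. Of the 10 genes, *Glul* was higher in MASH, *Cps1*, *Oat* and *Nags* were lower, and 6 did not pass the test (edgeR quasi-likelihood test on the summed counts, adjusted p under 0.05 by Benjamini-Hochberg over 15414 genes). Over all genes tested, 13.7% passed, 9.26% as higher and 4.48% as lower in MASH. The median log2 fold change was -0.90 over the 10 genes and 0.00 over all genes. The levels below are CPM divided by each library's TMM factor (scaled CPM), a correction for differences in RNA make-up. Since each UMI is counted near the 3′ end and is not set against gene length, levels are compared between libraries and not between genes. *Hnf4a*, which chose the nuclei, was itself at 342, 551 and 616 scaled CPM in chow and 256 and 213 in MASH. It did not pass (log2 fold change -1.10, adjusted p = 0.0746). The part of this choice of nuclei in the differences between diets was not tested.

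*Glul*, the enzyme that makes glutamine, was at 116, 137 and 122 scaled CPM in chow replicates 1, 2 and 3 and at 293 and 313 in MASH replicates 1 and 2. Both MASH libraries lay above every chow library. The log2 fold change was 1.28 (SE 0.24, adjusted p = 0.0179). *Cps1*, the entry enzyme of the cycle, was at 969, 1526 and 663 in chow and at 318 and 367 in MASH (log2 fold change -1.62, SE 0.44, adjusted p = 0.0476). The chow libraries differed among themselves by more than the MASH libraries did, and the groups did not overlap.

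*Oat*, which takes ornithine out of the cycle, was at 154, 192 and 101 scaled CPM in chow and 58.7 and 52.4 in MASH (log2 fold change -1.42, SE 0.32, adjusted p = 0.0301). *Nags*, which makes the activator of Cps1, was at 46.9, 45.6 and 76.1 in chow and 22.05 and 22.04 in MASH (log2 fold change -1.35, SE 0.30, adjusted p = 0.0276). For *Nags* the highest chow value was that of chow replicate 3, where *Cps1*, *Oat*, *Otc*, *Ass1*, *Asl* and *Gls2* had their lowest chow values. The groups overlapped for neither gene.

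Among the cytosolic enzymes, *Ass1* was at 207, 277 and 149 scaled CPM in chow and 110 and 111 in MASH (log2 fold change -0.93, SE 0.32, adjusted p = 0.0880). *Asl* was at 278, 261 and 203 against 115 and 157 (log2 fold change -0.86, adjusted p = 0.0835), and *Gls2*, the liver glutaminase, at 160, 120 and 74.5 against 64.4 and 48.2 (log2 fold change -1.07, adjusted p = 0.0841). None of these 3 overlapped between the diets, although none passed the test. *Slc25a15*, the ornithine carrier, was also without overlap, at 93.2, 139 and 99.95 in chow and 81.7 and 81.3 in MASH (adjusted p = 0.277). *Arg1* was at 455, 657 and 774 against 391 and 455, and *Otc* at 144, 96.2 and 54.05 against 78.6 and 76.3. Both overlapped, with adjusted p-values of 0.280 and 0.576. In all, 8 of the 10 genes did not overlap between the diets, 1 higher and 7 lower in MASH, where 54.3% of all genes tested did not overlap, 30.1% as higher and 24.2% as lower.

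**Figure D1:**
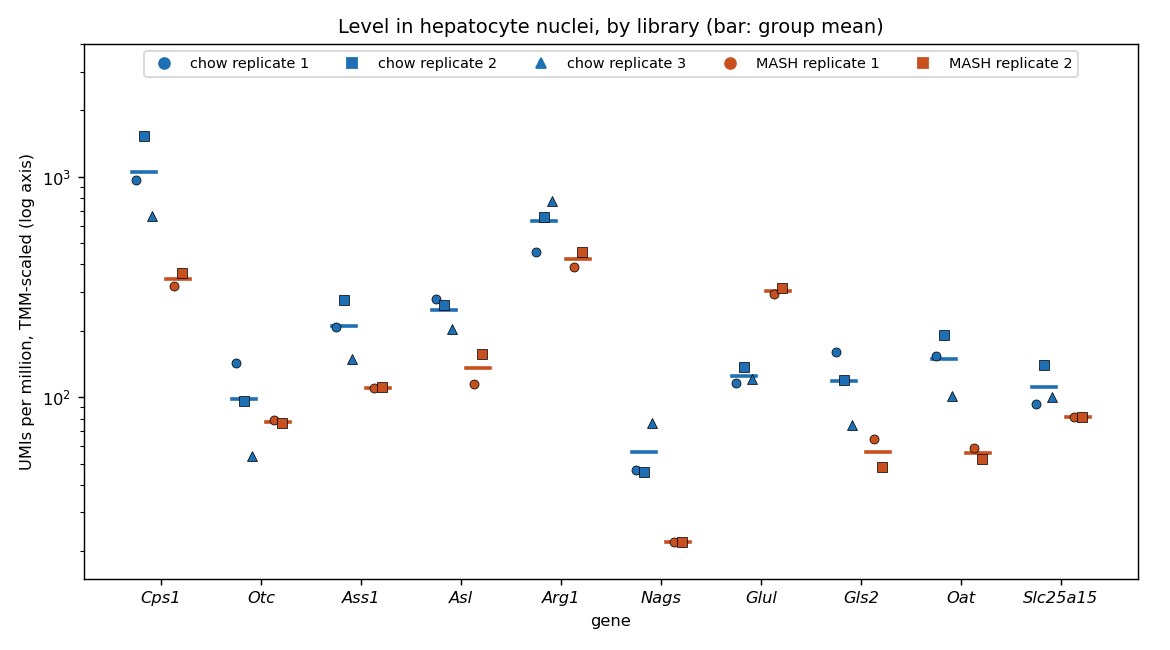
Level of each gene in hepatocyte nuclei (vertical log axis, scaled CPM) in the 3 chow and 2 MASH libraries; each symbol is 1 library and each bar a group mean. *Glul* lies at 293 and 313 in MASH against 116 to 137 in chow, and *Cps1* at 318 and 367 against 663 to 1526.

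These 4 calls rested on having both MASH libraries. With MASH replicate 1 left out, their adjusted p-values were 0.153 to 0.316, and with MASH replicate 2 left out, 0.181 to 0.280. The log2 fold changes kept their signs, at 1.32 and 1.23 for *Glul* and -1.53 and -1.72 for *Cps1*. Without chow replicate 2 the adjusted p rose to 0.0833 for *Cps1*, 0.0651 for *Oat* and 0.0506 for *Glul*, and without chow replicate 1 to 0.0507 for *Cps1*. Without chow replicate 3, *Ass1* (-1.19, adjusted p = 0.0220), *Asl* (-1.05, 0.0351) and *Gls2* (-1.38, 0.0186) also passed as lower. With no scaling between libraries the median of all genes moved to 0.33 on the log2 scale and the calls split into 1706 higher and 334 lower, against 1427 and 690. *Glul* still passed then, and *Cps1*, *Nags* and *Oat* did not (adjusted p = 0.106, 0.0505 and 0.0898).

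RNA of these genes was also counted in nuclei that carried no *Hnf4a* and at least 3 markers of endothelial cells, stellate cells or macrophages. These cells are not known to run a whole urea cycle. Whether they make RNA of single genes among the 10 themselves was not tested. *Cps1* was at 685 ± 355 CPM (SD, n = 3) in such nuclei of chow livers and 251 ± 7.40 (SD, n = 2) in MASH, unscaled, and *Alb*, the secreted protein of hepatocytes, at 8347 ± 3788 and 2978 ± 1292. The same nuclei held *Glul* at 121 ± 24.7 CPM in chow and 199 ± 36.06 in MASH, and *Oat* at 143 ± 53.07 and 57.2 ± 9.64. For each of the 10 genes the sign of the difference between the diets' means was the same in these nuclei as in hepatocyte nuclei. Within a library, hepatocyte nuclei held 1.29 to 1.76 times as much *Cps1* as these nuclei, 2.17 to 3.67 times as much *Nags*, 1.68 to 2.39 times as much *Asl* and 1.40 to 3.03 times as much *Arg1*. The ratio was 0.81 to 1.27 in chow and 1.45 and 2.17 in MASH for *Glul*. Over all libraries it was 0.92 to 1.24 for *Oat*, 0.65 to 1.61 for *Ass1* and 0.43 to 1.72 for *Otc*, so these 3 genes and *Glul* were not above the other nuclei in every library. The part of RNA shared between nuclei in the differences between diets was not tested.

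**Figure D2:**
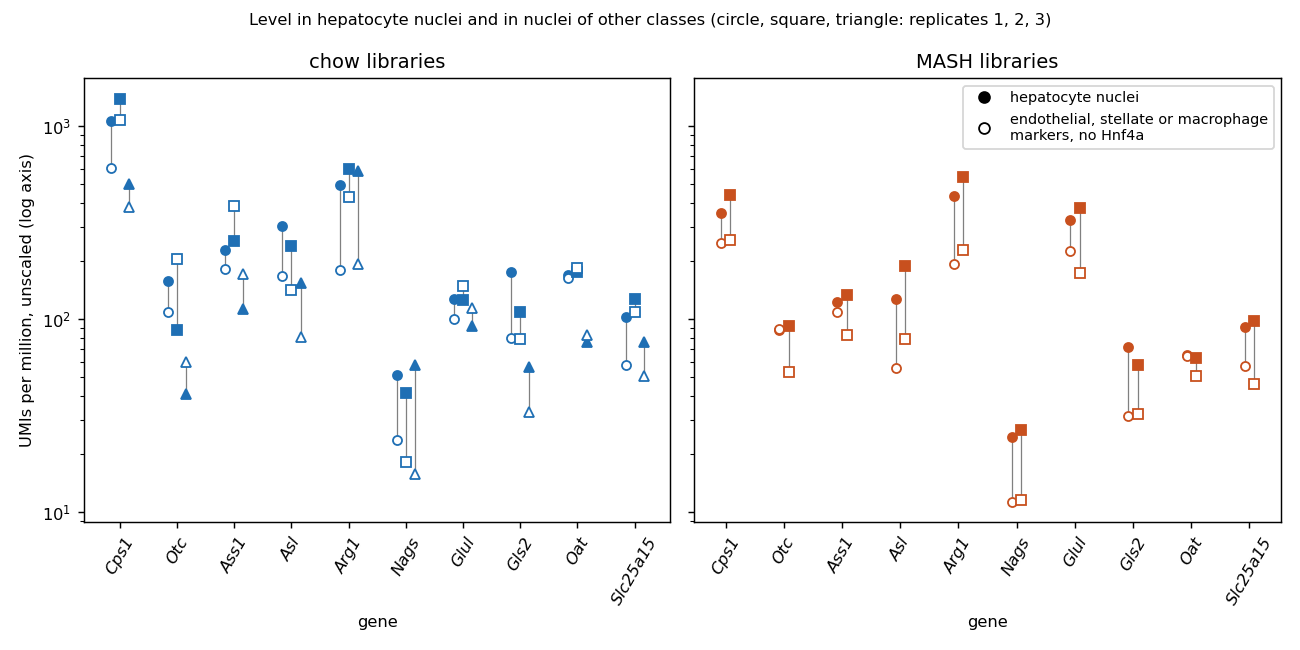
Level of each gene (vertical log axis, CPM, unscaled) in hepatocyte nuclei (filled) and in nuclei with endothelial, stellate or macrophage markers and no *Hnf4a* (open), joined within each library, for chow on the left and MASH on the right. Open and filled symbols lie close together for *Oat*, at a ratio of 0.92 to 1.24, and apart for *Nags*, at 2.17 to 3.67.

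The second comparison asked where along the lobule each gene was found. Hepatocyte nuclei of each library were ranked by *Cyp2e1* and *Cyp1a2*, which mark the central side, minus *Cyp2f2* and *Hal*, which mark the portal side, and cut into 3 equal zones, periportal, middle and pericentral. As a check, 9 further genes of the central side were all higher in the pericentral zone, and 9 of the portal side all lower, in each of the 5 libraries. The summed central genes differed between the outer zones by 1.53 to 3.23 on the log2 scale in chow and 2.92 to 3.28 in MASH, and the summed portal genes by -0.92 to -0.40 and -1.24 to -0.81. Nuclei with no UMI of the ranking genes were 0.222% to 2.30% in chow and 3.52% and 4.21% in MASH. Nuclei with equal scores for both sides, whose order was set by their barcode alone, were 13.6% and 21.4% of the periportal zone in MASH replicates 1 and 2, 16.7% in chow replicate 2 and 0% in chow replicates 1 and 3.

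In chow, 5 of the 10 genes passed the test between the outer zones, where 23.4% of 14002 genes did (12.1% higher and 11.3% lower in the pericentral zone). *Glul* and *Oat* were higher on the central side, and *Gls2*, *Asl* and *Arg1* on the portal side. *Glul* was at 21.4, 63.9 and 38.6 scaled CPM in the periportal zones of chow replicates 1, 2 and 3, and at 227, 223 and 248 in the pericentral zones. Its log2 fold change was 2.50 (SE 0.23, adjusted p = 6.14e-05). *Oat* was at 29.5, 73.9 and 31.2 periportally and 293, 332 and 202 pericentrally (log2 fold change 2.61, SE 0.17, adjusted p = 1.17e-05). The zones did not overlap for either gene.

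*Gls2* ran the other way, at 284, 177 and 103 scaled CPM in the periportal and 32.6, 53.1 and 38.04 in the pericentral zones of chow (log2 fold change -2.16, SE 0.25, adjusted p = 2.28e-04). *Asl* and *Arg1* were lower pericentrally by smaller amounts, with log2 fold changes of -0.64 (SE 0.12, adjusted p = 0.00326) and -0.63 (SE 0.11, adjusted p = 0.00217). *Cps1* did not pass at -0.32 (adjusted p = 0.0605), and did so at -0.47 without chow replicate 3 (adjusted p = 0.0135). *Otc* (-0.17), *Ass1* (0.09), *Nags* (-0.06) and *Slc25a15* (0.02) had no call between the zones of chow livers. *Otc* alone of these 4 passed without chow replicate 3, at -0.34 (adjusted p = 0.0335).

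In MASH, 8 of the 10 genes passed between the outer zones, where 10.7% of all genes did (5.08% higher and 5.63% lower pericentrally). *Glul* was at 65.04 and 68.4 scaled CPM in the periportal and 626 and 672 in the pericentral zones (log2 fold change 3.31, SE 0.28, adjusted p = 2.13e-04), and *Oat* at 15.99 and 14.2 against 125 and 115 (3.01, SE 0.24, adjusted p = 2.06e-04). *Cps1* fell from 468 and 511 periportally to 181 and 256 pericentrally (-1.16, SE 0.14, adjusted p = 0.00119). *Ass1* fell from 157 and 149 to 66.1 and 77.5 (-1.06, SE 0.13, adjusted p = 0.00104), and *Arg1* from 594 and 643 to 194 and 303 (-1.32, SE 0.14, adjusted p = 4.80e-04).

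*Gls2* fell most between the zones of MASH livers, from 119 and 89.2 scaled CPM to 15.04 and 15.5 (-2.71, SE 0.36, adjusted p = 0.00176). *Asl* (-0.69, adjusted p = 0.0183) and *Slc25a15* (-0.41, adjusted p = 0.0306) fell less. *Otc* was lower in both pericentral zones, by 0.50 on the log2 scale in each library, without passing (adjusted p = 0.0622), and *Nags* had no call at 0.14. Leaving out MASH replicate 1 ended the calls of *Cps1* (adjusted p = 0.0798), *Ass1* (0.0710), *Gls2* (0.0919), *Asl* (0.298) and *Slc25a15* (0.390), and leaving out MASH replicate 2 those of *Gls2* (0.0793), *Asl* (0.195) and *Slc25a15* (0.174). *Glul*, *Oat* and *Arg1* passed under each of the 12 alternatives tried. In this split the summed markers of macrophages were 0.47 to 0.50 times as high in the pericentral as in the periportal zones of MASH, those of stellate cells 0.53 to 0.56 times and those of cholangiocytes 0.41 to 0.42 times, against 0.73 to 0.78, 0.65 to 0.78 and 0.30 to 0.46 times in chow. With all nuclei that carried 3 or more such markers left out, 775 genes passed in MASH against 1500, and the same 8 of these 10 genes passed together with *Otc* (-0.59, adjusted p = 0.0434).

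The third comparison tested whether the zonal contrast itself differed between the diets, with the contrast in MASH minus that in chow. One of the 10 genes passed, *Ass1*, where 1.55% of all genes did (0.964% as higher and 0.586% as lower in MASH). In chow *Ass1* differed between the outer zones by -0.07, 0.18 and 0.37 on the log2 scale in replicates 1, 2 and 3, and in MASH by -1.24 and -0.94. Hepatocyte nuclei held 1.25, 0.65 and 0.66 times as much *Ass1* as the nuclei without *Hnf4a* in chow, and 1.12 and 1.61 times in MASH. In chow replicates 2 and 3, the contrasts of 0.18 and 0.37 were thus measured at a level below that of the other nuclei. The contrast of -0.07 in chow replicate 1 was measured at a level above it. The part of RNA shared between nuclei was not tested. The difference of the contrasts was -1.14 (SE 0.16, adjusted p = 0.00896). It was called under 10 of 12 alternatives with values from -1.33 to -0.88, and not without MASH replicate 1 (-1.002, adjusted p = 0.208) or MASH replicate 2 (-1.33, adjusted p = 0.181).

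For *Cps1* the contrasts were -0.30, -0.47 and 0.02 in chow against -1.37 and -0.9985 in MASH, and their difference of -0.83 (SE 0.18) did not pass (adjusted p = 0.0530). *Arg1* had -0.71, -0.42 and -0.54 in chow and -1.61 and -1.08 in MASH, a difference of -0.69 (SE 0.17, adjusted p = 0.0904). *Slc25a15* (0.10, 0.22 and -0.04 against -0.56 and -0.33) and *Otc* (-0.41, -0.09 and 0.28 against -0.50 and -0.50) had adjusted p-values of 0.145 and 0.463. The contrasts of these 4 genes and of *Ass1* did not overlap between the diets and were all lower in MASH, where 36.8% of all genes did not overlap, 25.7% as lower. *Cps1* passed under 5 of 12 alternatives and *Arg1* under 3. Chow replicate 1, whose check genes separated the zones about as far as those of MASH, had contrasts of -0.07 for *Ass1*, -0.30 for *Cps1* and -0.71 for *Arg1*.

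For the genes with the steepest zonal contrasts the diets overlapped. *Glul* had contrasts of 3.41, 1.80 and 2.68 in chow and 3.27 and 3.30 in MASH (difference 0.81, SE 0.34, adjusted p = 0.292), *Oat* 3.31, 2.17 and 2.69 against 2.96 and 3.01 (0.40, SE 0.30, adjusted p = 0.578), and *Gls2* -3.12, -1.74 and -1.44 against -2.98 and -2.52 (-0.55, SE 0.44, adjusted p = 0.610). *Asl* and *Nags* differed by -0.05 (SE 0.19) and 0.20 (SE 0.16). Without chow replicate 1 the differences of *Glul* (1.13, adjusted p = 0.00759) and *Gls2* (-1.07, adjusted p = 0.00359) passed, and those of *Cps1* (-0.88, 0.00759) and *Arg1* (-0.78, 0.00986) did as well.

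**Figure D3:**
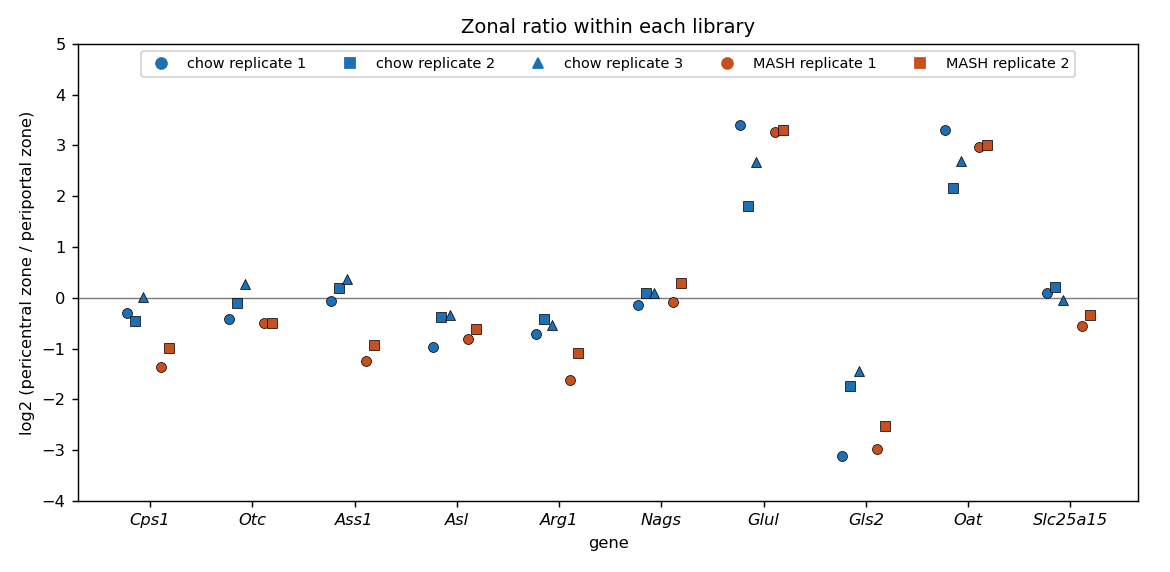
Log2 ratio of the pericentral to the periportal zone for each gene, 1 symbol per library, with 0 marking equal levels. The MASH values of *Ass1* lie at -1.24 and -0.94, below the chow values of -0.07 to 0.37, while those of *Glul* lie at 3.27 and 3.30 within the chow range of 1.80 to 3.41.

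Cutting the same ranking into 10 equal bins gave a finer view, as values with no test. In chow, *Glul* went from a mean of 40.6 scaled CPM in the first, most periportal bin to 392 in the last, and in MASH from 44.1 to 1041, a ratio of 9.65 in chow and 23.6 in MASH. The last bin held 19.8% to 34.7% of all *Glul* UMIs of a chow library and 30.4% and 30.6% of those of a MASH library. *Oat* went from 38.1 to 358 in chow and from 9.498 to 209 in MASH, ratios of 9.40 and 22.0. *Gls2* went from 196 to 33.8 in chow and from 124 to 10.8 in MASH.

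For each of the 5 enzymes of the cycle, the mean levels of chow and MASH lay closer together in the first bin than in the last. For *Asl* this held by little, at 300 and 222 scaled CPM in the first and 192 and 109 in the last bin. Its means lay furthest apart in bin 4, at 297 and 134, and were at 187 and 115 in bin 9. *Ass1* was at 191 scaled CPM in the first bin of chow and 186 in that of MASH, and at 230 and 69.0 in the last, so its last bin was 1.20 times the first in chow and 0.37 times in MASH. *Arg1* was at 766 and 748 in the first bin and 412 and 202 in the last. *Cps1* was at 1181 and 564 in the first and 882 and 184 in the last. For *Cps1* and *Asl* the libraries of the diets did not overlap at either end. *Nags* was at 52.6 and 26.8 in the first and 56.2 and 28.5 in the last bin, with ratios of 1.07 and 1.06.

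**Figure D4:**
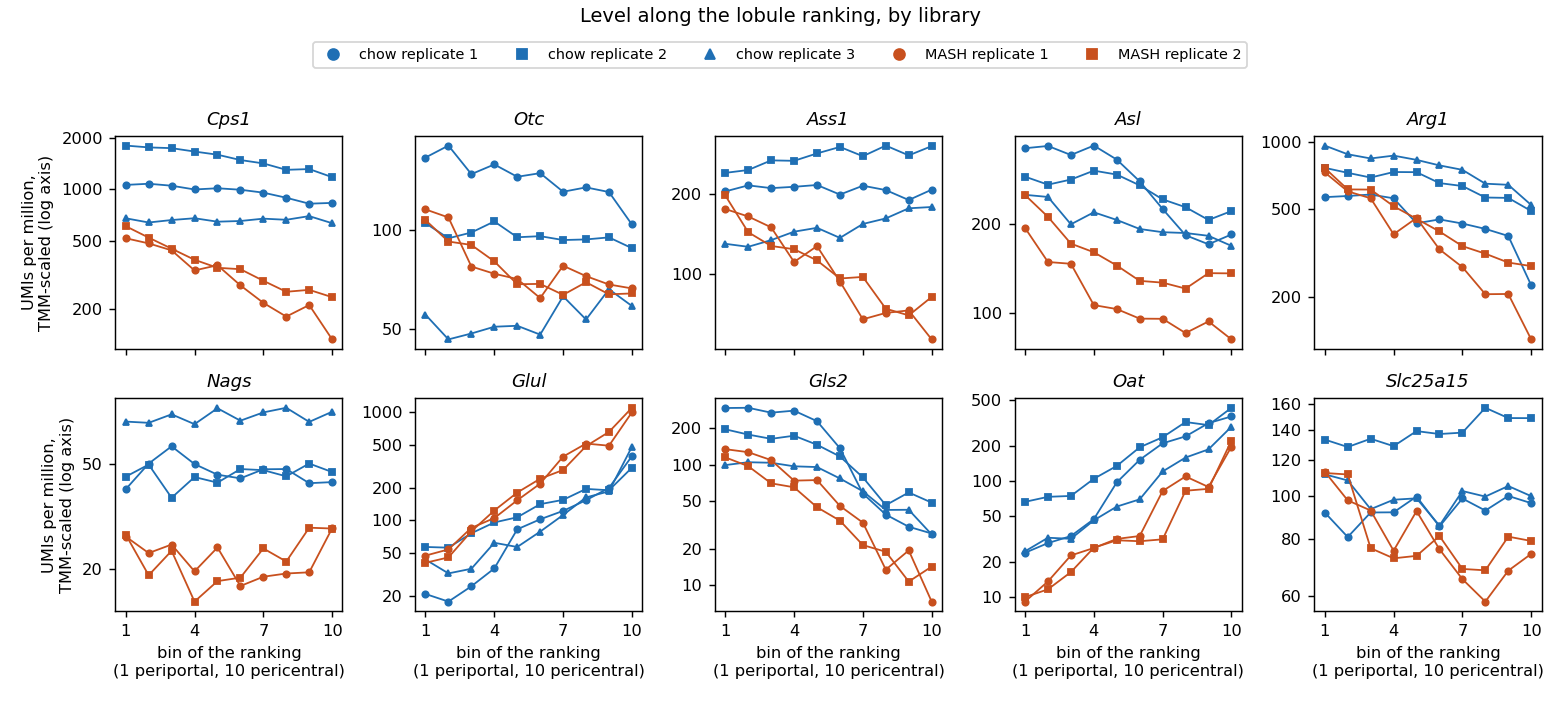
Level of each gene in bins of the ranking from the portal side (1) to the central side (10), with 1 line per library and a vertical log axis in scaled CPM, scaled separately for each gene. The MASH lines of *Ass1* go from a mean of 186 to 69.0 while the chow lines end at a mean of 230, and the lines of *Nags* end at 1.07 and 1.06 times their first bin on average.

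The genes whose bin profiles over the 5 libraries were most like that of *Glul*, among 6875 genes of at least 20 CPM on average, were *Gulo* (Pearson's r = 0.96 over 50 profile points), *Cyp2a5* (0.94) and *Tbx3* (0.93). For *Gls2* they were *Amdhd1* (0.93), an enzyme of histidine breakdown, *AC135859.1* (0.90) and *Cryl1* (0.90), and for *Cps1* they were *Onecut1* (0.95), *Igf1* (0.95) and *Ces3b* (0.94). The bins of a library share its nuclei and depth, so these correlations describe the profiles only.

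The diets were then compared within each outer zone. In the periportal zone, where 13.6% of 13231 genes passed (9.14% higher and 4.45% lower), *Nags* was the one gene of the 10 called, at -1.29 (SE 0.29, adjusted p = 0.0314). In the pericentral zone, where 9.03% of 13366 genes passed (5.78% higher and 3.25% lower), 4 genes were called. *Cps1* was lower by 2.01 on the log2 scale (log2 fold change -2.01, SE 0.40, adjusted p = 0.0252), from 859, 1273 and 671 scaled CPM in chow to 181 and 256 in MASH. *Ass1* changed by -1.53 (SE 0.30, adjusted p = 0.0239), from 203, 290 and 171 to 66.1 and 77.5.

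*Gls2*, already low on the central side, changed there by -1.34 (SE 0.27, adjusted p = 0.0274). Its pericentral level, unscaled, was 35.6, 48.3 and 28.8 CPM in chow and 16.7 and 18.6 in MASH. The nuclei without *Hnf4a* held more *Gls2* in each library, at 79.4, 79.1 and 33.0 in chow and 31.3 and 32.2 in MASH. The part of RNA shared between nuclei in this change was not tested. In the pericentral zone *Glul* rose by 1.56 (SE 0.26, adjusted p = 0.0156). In the periportal zone the same 4 genes had log2 fold changes of -1.24 for *Cps1* (adjusted p = 0.107), -0.39 for *Ass1* (0.436), -0.87 for *Gls2* (0.218) and 0.70 for *Glul* (0.260), none of them called. Only for *Ass1* did the test of the difference between zones, given above, pass. Scaled CPM did not overlap between the diets for 5 of the 10 genes in the periportal zone, 1 higher and 4 lower in MASH, where 52.5% of all genes did not overlap (29.6% higher and 22.9% lower). In the pericentral zone 9 did not overlap, 1 higher and 8 lower, where 51% of all genes did not (23.7% higher and 27.2% lower). The 6 genes without a call in the pericentral zone had values from -1.12 (*Oat*, adjusted p = 0.0557) to -0.38 (*Otc*, 0.486), among them *Nags* at -1.11 (0.0603).

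Single libraries carried weight here too. Leaving out MASH replicate 1, MASH replicate 2 or chow replicate 2 ended each of the 4 pericentral calls, with adjusted p-values of 0.150 to 0.285, 0.164 to 0.242 and 0.0508 to 0.0601, and leaving out MASH replicate 1 or 2 ended the periportal call of *Nags* (0.221 and 0.272). Without chow replicate 3 *Nags* (-0.85, 0.0434) and *Oat* (-1.33, 0.0131) passed in the pericentral zone, and *Cps1* (-1.55, 0.0206), *Gls2* (-1.21, 0.0459) and *Oat* (-1.79, 0.0221) in the periportal zone. Without chow replicate 1 *Nags* passed in the pericentral zone (-1.23, 0.0441) and *Oat* in the periportal zone (-1.78, 0.0331).

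**Figure D5:**
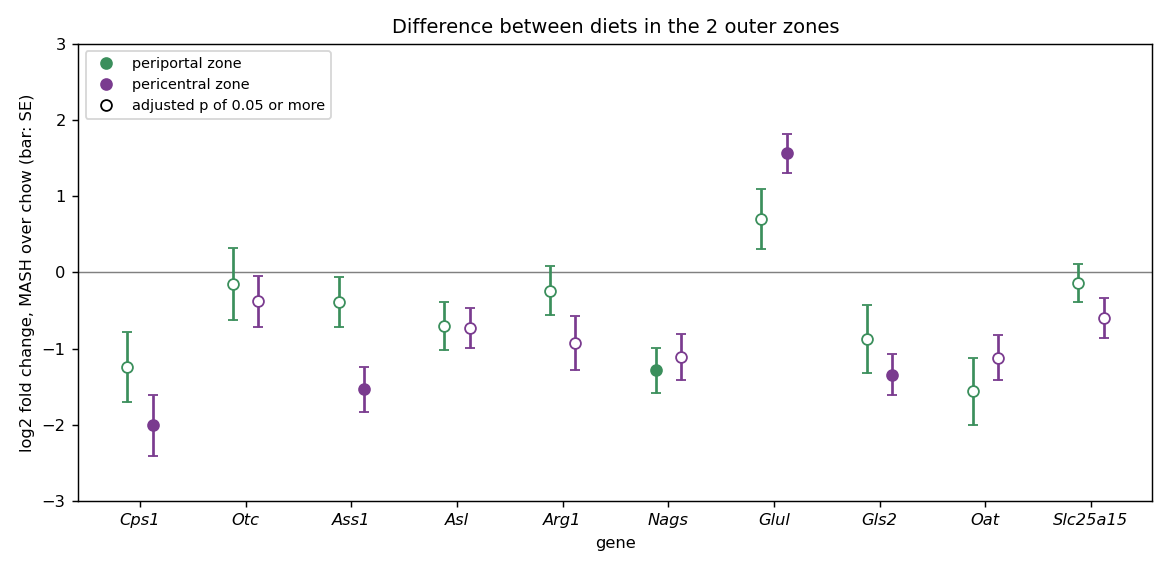
Log2 fold change of MASH over chow for each gene in the periportal and pericentral zones, with standard errors as bars and open symbols for an adjusted p of 0.05 or more. *Ass1* lies at -0.39 periportally and -1.53 pericentrally, *Nags* at -1.29 and -1.11, and *Glul* lies above 0 in both.

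The share of hepatocyte nuclei with a *Glul* UMI was taken after thinning each nucleus to 2000 UMIs. It was 11.8% ± 3.23 (SD, n = 3) in chow and 22.4% ± 0.69 (SD, n = 2) in MASH, a difference of 10.6 percentage points (exact permutation test over libraries, two-sided, p = 0.1, the smallest p that 3 libraries against 2 allow). Unthinned shares were 21.2% and 38.5%. Nuclei with at least 3 *Glul* UMIs after thinning were 2.62% ± 0.65 in chow and 7.78% ± 0.15 in MASH. In the pericentral zone alone 15.8% to 21.4% of the chow and 35.1% and 36.9% of the MASH nuclei held a *Glul* UMI, and in the periportal zone 4.19% to 9.96% and 11.2% and 11.7%.

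Nuclei with stellate markers gave values to set beside these shares. After thinning to 1000 UMIs, *Glul* was found in 6.39% to 8.82% of them in chow and 9.83% and 14.0% in MASH, against 6.14% to 9.76% and 15.1% and 15.2% of hepatocyte nuclei. Their median depth before thinning was 1036 to 1331 UMIs in chow and 1468 and 1491 in MASH. Over all nuclei of other classes the shares were 7.60% to 11.5% in chow and 11.3% and 15.2% in MASH. The share over all hepatocyte nuclei of chow livers thus overlapped the shares in these other nuclei. That of MASH replicate 1, at 15.1%, did not exceed the 15.2% in its nuclei of other classes. The difference in shares between diets is given here as values only. The mean number of *Glul* UMIs in nuclei that held any was 2.14 ± 0.45 in chow and 3.10 ± 0.25 in MASH after thinning to 2000 UMIs. For *Cps1*, 59.6% to 88.3% of the chow and 42.8% and 47.1% of the MASH nuclei held a UMI at that depth. Stellate-marker nuclei held *Cps1* in 28.3% to 55.1% and 12.9% to 16.6% at 1000 UMIs, against 37.6% to 70.2% and 25.9% to 32.4% of hepatocyte nuclei.

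The study named disease-associated hepatocytes (daHep), a state of hepatocytes, by *Nrg1*, *Anxa2*, *Gdf15*, *Sox4* and other genes, which it chose on these same libraries. Nuclei with a UMI of at least 2 of these 4 genes after thinning were 409 of 2684 and 292 of 2611 hepatocyte nuclei in MASH replicates 1 and 2, and 9, 6 and 25 in chow. They were compared with the other hepatocyte nuclei of the same library. All 10 genes were lower in the marked nuclei of MASH, where 7.67% of 14633 genes passed, 3.53% as higher and 4.14% as lower. The median log2 fold change was -0.52 over the 10 genes and -0.01 over all genes.

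*Glul* was at 198 and 207 CPM, unscaled, in marked nuclei and 349 and 397 in the other nuclei of MASH replicates 1 and 2, a log2 fold change of -0.92 (SE 0.06). *Oat* was at 45.3 and 31.4 against 68.9 and 66.8 (-0.85, SE 0.12), and *Cps1* at 250 and 286 against 373 and 459 (-0.68, SE 0.06). *Arg1*, at 328 and 433 against 454 and 560, changed by -0.47 (SE 0.05). *Nags*, with 29 and 50 UMIs in marked nuclei, was at 12.04 and 25.4 against 26.8 and 26.6 CPM, so its change of -0.60 came mostly from MASH replicate 1. *Otc* (-0.52), *Ass1* (-0.51), *Slc25a15* (-0.42), *Gls2* (-0.42) and *Asl* (-0.32) were lower in both MASH libraries too.

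The adjusted p-values of these 10 changes were at most 0.00734 (*Nags*), from a fit of 3 libraries with 1 residual degree of freedom, in which the spread is mostly borrowed from other genes. With 1 MASH library left out there was no test, and the values were -0.10 or -1.19 for *Nags*, -0.18 or -0.59 for *Gls2* and -1.12 or -0.65 for *Oat* without MASH replicate 1 or 2. The calls depended on how nuclei were marked. With 1 *Anxa2* UMI as the mark 149 genes passed against 1123, *Glul* was at 0.28 (adjusted p = 0.302) and *Oat* was higher in marked nuclei at 0.57 (adjusted p = 0.00826). Within the pericentral zone 119 genes passed, *Cps1* and *Glul* among them, and *Slc25a15* was at 0.14 (adjusted p = 0.918). Marked nuclei were unevenly spread, with 34.7% and 46.6% of them in the periportal and 23.7% and 19.5% in the pericentral zone. Their summed cholangiocyte markers were 1.22 and 1.25 times and their stress genes 1.42 and 1.71 times those of the other nuclei, and their part in these differences was not tested.

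Other genes of the same pathways were read from lists. Of 16 genes of the urea cycle and ammonia handling, 13 were tested between the diets and 1 passed, *Rhbg*, a channel for ammonia, which rose by 1.91 in MASH (SE 0.42, adjusted p = 0.0269). Its level was low, at 1.04 to 1.35 scaled CPM in chow and 5.66 and 3.46 in MASH. Of 19 tested genes of glutamine, glutamate and proline, 2 were lower: *Slc38a3*, a glutamine carrier, changed by -1.37 (adjusted p = 0.0441) and *Pycrl*, of proline synthesis, by -1.29 (adjusted p = 0.0364). Of 34 genes of amino acid breakdown, 4 passed and all were lower: *Cbs*, of the route from methionine to cysteine, at -1.66 (adjusted p = 0.0111), *Aass*, of lysine breakdown, at -1.59 (0.0179), *Dbt*, of the branched-chain complex, at -1.35 (0.0264) and *Kmo*, of tryptophan breakdown, at -1.17 (0.0495). Median log2 fold changes of the 3 lists were -0.25, -0.11 and -0.64. Over all genes tested between the diets, 9.26% passed as higher and 4.48% as lower.

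Along the lobule of chow livers, 6 of 13 tested genes of the ammonia list were higher pericentrally and none lower, led by *Rhbg* (1.78), *Aqp9*, a channel for glycerol and urea (1.24), and *Car5a*, which supplies bicarbonate to Cps1 (0.70). *Slc1a2*, a glutamate carrier, had the largest contrast of the glutamine list at 4.43 (SE 0.30), with *Slc1a5* (1.34) and *Prodh* (1.02) also higher pericentrally. Of the 34 breakdown genes, 11 were higher and 7 lower, where 12.1% and 11.3% of all genes were. The leading ones were *Hpd*, of tyrosine breakdown, at 1.05 and *Sds*, serine dehydratase, at -3.62, with *Sdsl* at -2.99 and *Gldc*, of glycine breakdown, at -1.62. In MASH 1 was higher and 11 were lower, where 5.08% and 5.63% of all genes were, with *Sds* at -3.91 and *Gldc* at -2.37. *Slc1a2*, *Rhbg*, *Sds* and *Sdsl* were also among the genes that checked the ranking. No gene of the 3 lists passed the test of zone by diet. In marked nuclei 7 of 13, 7 of 18 and 21 of 34 tested genes of the 3 lists were lower, where 4.14% of all genes were. *Gclc*, which starts glutathione synthesis, was higher there at 0.26 (adjusted p = 3.11e-06).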

How the data were processed

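Nuclei of snap-frozen mouse liver were sorted and their RNA captured at the 3′ end with the 10x Genomics Chromium kit. Per the submitters' processing notes and the study's methods, reads were counted with Cell Ranger 8.0.1 on the GRCm38 transcriptome of 10x Genomics, with intronic reads left out, which lowers the yield from nuclei. The deposited matrices hold raw UMI counts of filtered barcodes, with no cell type names or doublet calls, and no doublet caller was run here. Samples were grouped by their titles. The 10 genes, the lists and the comparisons were chosen with earlier results of these data known.

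UMI counts were summed per library, or per library and zone. Ranking used log2(1 + UMIs per 10000 of *Cyp2e1* and *Cyp1a2*) minus the same of *Cyp2f2* and *Hal*. Sums were tested with edgeR 4.0.16 in R 4.3.3 (quasi-likelihood test, TMM, filterByExpr, Benjamini-Hochberg, two-sided). Zones and marked nuclei were fitted with the library as a block and a term per diet, and sums of fewer than 20 nuclei were left out. SEs were taken as the size of the fitted change divided by the root of its F statistic. Calls needed an adjusted p below 0.05. The 10 genes were named in every comparison, and from each list at most 3 called genes per direction with the largest change, except that *Kmo* was added to complete a count of 4. The study used edgeR with Storey's q-values, which was run as an alternative. Others were DESeq2 1.42.0, RLE size factors, no filter, other gates and rankings, thinning and leaving out each library. Runs with no scaling between libraries, and without chow replicate 3 in DESeq2, were added after the data were seen. Scripts were tested on simulated counts. Of the 32285 genes, 99.6% were found in GENCODE M21 by identifier, and the list symbols *Ca5a*, *Mut* and *Pycr3* are *Car5a*, *Mmut* and *Pycrl* in the files. *Cps1*, *Asl*, *Arg1* and *Gls2* had no entry in the promoter table used. A few genes of the lists are not reported here.

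The numbers in the sample titles do not state a shared mouse or day, so libraries were not paired. Deviations from the group means had r = -0.10 and -0.20 between same-numbered libraries. With 2 MASH libraries these deviations mirror each other within MASH, so the values cannot show whether libraries were paired.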

Additional observations from a re-analysis of the deposited data

Results flagged for a closer look

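The contrast of *Ass1* between the pericentral and periportal zones differed between the diets, by -1.14 on the log2 scale (SE 0.16, adjusted p = 0.00896, edgeR), by the test of the difference itself. In chow the 3 libraries had contrasts of -0.07 to 0.37, and in MASH both lay below, at -1.24 and -0.94. With 1 MASH library left out the difference was not called (adjusted p = 0.208 and 0.181). The cause was not tested. None of the other 9 genes passed this test.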

How the results depend on the processing

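Over 740 results of the 10 genes under alternatives, 624 stayed on their side of the threshold or, where untested, within the SE of the main fit. Some of these changed sign with no call in either run, such as *Otc* between diets, from -0.34 to at most 0.04. Of the rest, 48 passed newly, 58 no longer passed and 7 untested values moved by the SE of the main fit or more. Among results called in the main or the alternative run, 3 reversed. The 3 were in marked nuclei: *Glul* at 0.28 and *Oat* at 0.57 with 1 *Anxa2* UMI as the mark, and *Slc25a15* at 0.14 in the pericentral zone only. Numbers of genes called moved more. Between diets, 2117 genes passed, with 3598 by DESeq2, 4063 by Storey's q-values and 3322 with no filter, and 216 to 3298 with 1 library left out. In the periportal zone 1798 passed and 55 to 2739 with 1 left out, and in the pericentral zone 1207 and 55 to 2029. For zone in chow, 3275 passed, with 1918 by DESeq2, 1790 when nuclei were ranked on the check genes, and 2147 to 2838 with 1 library left out. For zone in MASH, 1500 passed, with 693 by DESeq2, 775 without nuclei that carried other markers, 541 when ranked on the check genes, 617 when ranked on thinned nuclei, and 86 to 2164 with 1 left out. For zone by diet 217 passed, with 572 with no filter, 38 when ranked on the check genes, 113 when ranked on thinned nuclei, and 1 to 566 with 1 left out. For marked nuclei 1123 passed, with 149 by the *Anxa2* mark, 119 in the pericentral zone and 1123 to 1158 with 1 chow library left out. The difference in the share of nuclei with a *Glul* UMI, 10.6 points, was 17.3 with no thinning and 5.16 for at least 3 UMIs. It was 7.87 with nuclei thinned to 1000 UMIs and the gate also lowered to 1000 UMIs. The cause of these differences was not tested, except that no test is left in marked nuclei with 1 MASH library out.

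A replicate block by the number in the title gave 1937 calls between diets, 1659 in the periportal and 1584 in the pericentral zone. No MASH library shares the number of chow replicate 3, so under the block that library adds nothing to the difference between diets. With the block *Ass1* (-1.12, adjusted p = 0.0347) and *Gls2* (-1.31, 0.0142) also passed between diets, *Cps1* (-1.49), *Gls2* (-1.14) and *Oat* (-1.66) in the periportal and *Oat* (-1.31) in the pericentral zone. Between diets, *Ass1* and *Gls2* also passed with chow replicate 3 simply left out, as given above. The block changed no other call of the 10 genes.

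With 2 MASH libraries the spread in MASH is poorly known, a single library can end a call, and RNA found in nuclei of all classes limits what shares of nuclei can show.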

Other observations

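A list of 17 regulators of hepatocyte genes was read in the same fits, for which the shares over all genes are given above. Between the diets 1 of them passed, *Axin2*, a target gene of Wnt signals, which rose by 1.57 in MASH (SE 0.23, adjusted p = 0.00867, edgeR). Its level was 8.68 to 9.78 scaled CPM in chow and 26.7 and 27.6 in MASH. *Axin2* rose in the periportal zone (1.86, adjusted p = 0.0294) and in the pericentral zone (1.71, adjusted p = 0.00711). In chow 4 regulators were higher pericentrally, led by *Lgr5* (4.604), *Tbx3* (3.84) and *Axin2* (2.71), and 4 were lower, led by *Ppargc1a* (-0.87), *Zbtb20* (-0.42) and *Hnf4a* (-0.30). *Hnf4a* also chose the nuclei, and *Lgr5*, *Tbx3* and *Axin2* were among the genes that checked the ranking. In MASH 4 were higher pericentrally, led by *Lgr5* (4.30), *Tbx3* (3.42) and *Axin2* (2.56), and 0 were lower, and none passed the test of zone by diet. In daHep-marked nuclei of MASH *Lgr5* (-0.98), *Tbx3* (-0.86) and *Klf15* (-0.39) were among the 5 lower regulators, and *Ctnnb1* (0.23) was the 1 that was higher. Of the marked nuclei of MASH replicates 1 and 2, 23.7% and 19.5% lay in the pericentral zone, and 5 of the 9 central check genes were lower in them (median log2 fold change -0.65 over the 9). The part of this uneven spread was not tested.

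Of the 9 check genes of the central side, *Rhbg* and *Axin2*, were higher in MASH over all hepatocyte nuclei, and *Cyp2c29*, a drug-metabolising enzyme, was lower, at -3.88 on the log2 scale (SE 0.41, adjusted p = 0.00346). Of the 9 portal check genes *Cdh1*, the adhesion protein E-cadherin, was higher at 1.29 (SE 0.35, adjusted p = 0.0476), and the other 8 did not pass.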
